A study of Drosophila melanogaster with 3 samples.

Results

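The tara locus held 12 of the 3833 thresholded Su(H)-GFP peaks of Drosophila melanogaster embryos (0.313%). The locus was taken as the gene tara (FBgn0040071, dm6 assembly, chromosome 3R, 16225651 to 16260329, plus strand) with 10 kb on each side. Every peak whose summit, the position of highest signal, fell there was counted. The pooled list had 52 summits in this window among its 30000, and the lists of replicates 1, 2 and 3 had 42, 39 and 45 among 30000 each. The gene was chosen by its peaks in these same lists, so its peak number, signal and rank are given as descriptions and carry no test.

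The data were chromatin immunoprecipitation and sequencing (ChIP-seq) peak lists from 3 biological replicates of whole embryos of both sexes, aged 0 to 24 h. The transgenic flies carried Su(H) with green fluorescent protein (GFP) joined at its C-terminal end, and anti-GFP antibody was used for the pull-down. Chromatin was broken by sonication into pieces of 200 to 800 bp. All 3 libraries belonged to 1 group, and the control library behind the peak calls was not analysed here, so no condition could be compared with another. The sources do not say how the fusion is driven or whether the untagged protein was still present, and a whole embryo mixes all its cell types. The pooled and replicate lists contain background by design, so a summit found only there is not a called peak. Their lowest signals were 30.0 in the pooled list and 14.5, 11.0 and 11.7 in replicates 1 to 3. Signal is the authors' signal value for each peak in arbitrary units, with no stated scaling for depth, and rank 1 is the strongest peak of a list.

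Su(H) (Suppressor of Hairless) binds DNA at the end of the Notch pathway and carries the output of the receptor to its target genes. Without Notch activity it works with the co-repressor Hairless, and with it the cleaved receptor and the co-activator Mastermind join it on the DNA. The gene tara, taranis, encodes a nuclear protein of the TRIP-Br (SERTA domain) family. It was placed in the trithorax group, whose members keep developmental genes active against the Polycomb group, and it is also linked to the cell cycle. In the adult brain it promotes sleep together with Cyclin A, and in the regenerating wing disc it protects tissue from changes of fate.

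The annotation gives tara a pair of transcripts with separate starts. Transcript tara-RA starts at 16225651 with an exon of 789 bp, and tara-RB starts at 16242816 with an exon of 514 bp, 17165 bp further along. Both splice to the same last exon of 3552 bp, which holds 2724 bp of their coding sequence, against 24 bp in the first exon of tara-RA and 12 bp in that of tara-RB. The intron of tara-RA spans 30338 bp and contains the whole first exon of tara-RB. A short non-coding gene, lncRNA:CR45643, lies 1797 bp before tara on the same strand, and bor, which encodes a mitochondrial ATPase, follows 1026 bp after its end.

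The sequences that the results turn on are the strongest and the second strongest peaks, the peak at the tara-RB promoter, and both peaks that held a Su(H) consensus site. Each is printed as the 201 bp centred on the summit, on the plus strand of dm6, from the RefSeq copy of that assembly. Capitals mark matches of motifs named here. They mark a Zelda match in the second strongest peak, GAGA repeats in the tara-RB promoter peak, and the Su(H) site in each intronic peak.
Strongest peak, chr3R:16222391-16222591: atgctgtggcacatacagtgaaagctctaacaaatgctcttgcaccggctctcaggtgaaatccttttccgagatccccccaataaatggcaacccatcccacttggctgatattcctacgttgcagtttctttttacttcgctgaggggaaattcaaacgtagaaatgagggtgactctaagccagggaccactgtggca
Second strongest peak, chr3R:16224422-16224622: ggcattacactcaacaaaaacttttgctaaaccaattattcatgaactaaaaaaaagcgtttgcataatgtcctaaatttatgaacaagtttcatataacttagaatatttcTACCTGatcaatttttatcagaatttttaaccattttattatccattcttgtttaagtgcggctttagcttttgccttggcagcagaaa
tara-RB promoter peak, chr3R:16242553-16242753: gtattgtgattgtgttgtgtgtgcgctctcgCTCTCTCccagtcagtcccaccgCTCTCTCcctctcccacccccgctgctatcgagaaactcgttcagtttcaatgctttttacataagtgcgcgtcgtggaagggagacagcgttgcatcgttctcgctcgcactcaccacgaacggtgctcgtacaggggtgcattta
Intronic peak 4852 bp past the tara-RA start, chr3R:16230403-16230603: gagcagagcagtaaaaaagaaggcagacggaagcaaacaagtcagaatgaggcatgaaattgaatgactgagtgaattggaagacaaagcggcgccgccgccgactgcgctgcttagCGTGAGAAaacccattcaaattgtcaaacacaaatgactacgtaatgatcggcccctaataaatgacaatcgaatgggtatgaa
Intronic peak 10057 bp past the tara-RA start, chr3R:16235608-16235808: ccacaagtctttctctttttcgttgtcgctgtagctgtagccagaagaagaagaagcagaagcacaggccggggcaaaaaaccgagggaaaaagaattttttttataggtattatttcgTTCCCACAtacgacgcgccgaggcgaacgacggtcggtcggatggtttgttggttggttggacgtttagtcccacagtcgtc

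The 12 thresholded summits fell into an upstream group of 3, a promoter summit at tara-RB, and 8 summits in the intron of tara-RA outside that promoter. No thresholded summit lay in an exon of tara, within 500 bp of the tara-RA start, or downstream of the gene. Neighbouring summits were 527 to 7365 bp apart, with a median of 1423 bp, so none of them merged when summits within 500 bp were joined. Outside the window the nearest thresholded summits were 16830 bp before tara, with a pooled signal of 118, and 20411 bp after it in gish, a casein kinase gene, with a pooled signal of 1225. The last pooled summit inside the left border lay 9956 bp from the gene and the first outside it 10438 bp, with signals of 32.9 and 41.6. On the right these stood at 9641 and 13247 bp, with signals of 59.2 and 58.6.

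**Figure D1:**
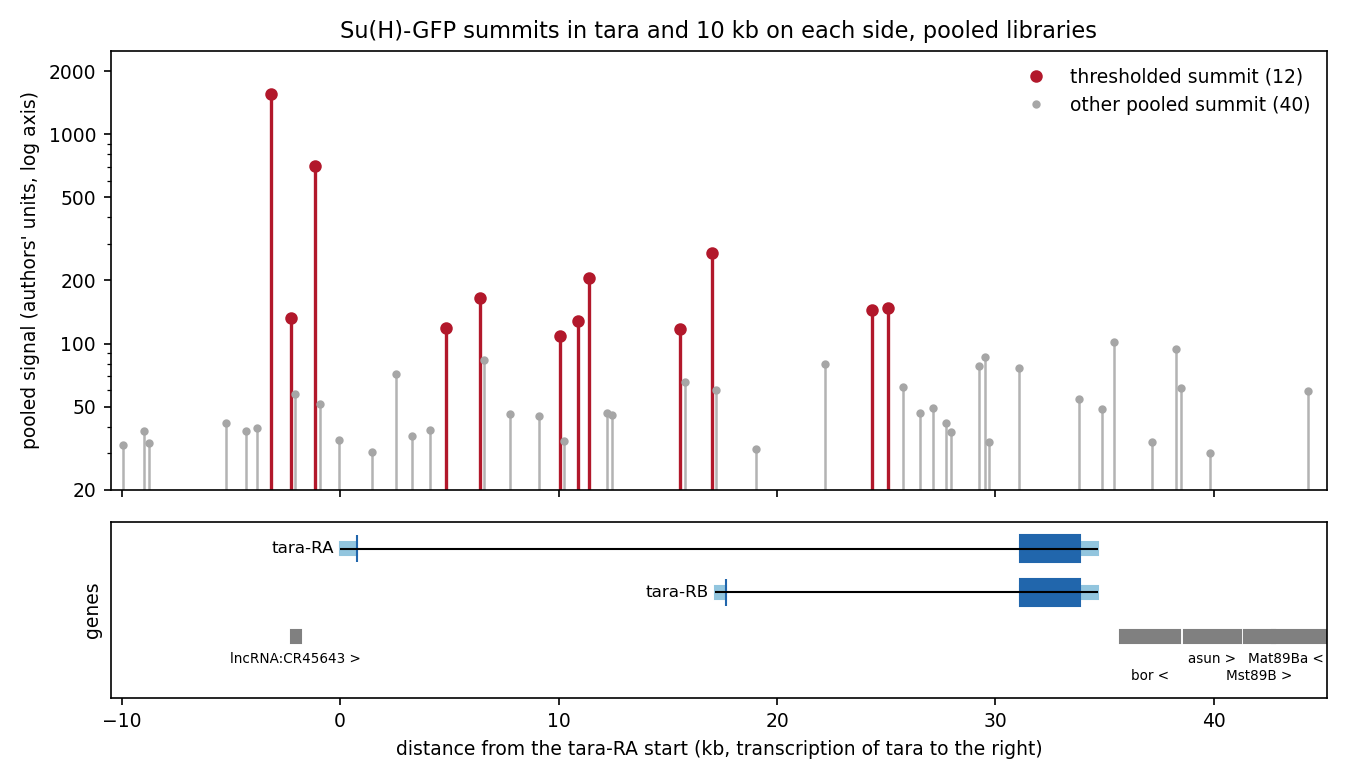
Pooled signal (log axis, authors' units) of each pooled summit against its distance from the tara-RA start in kb, red for the 12 thresholded and grey for the 40 other summits, above the exons (pale), coding sequence (dark blue) and neighbouring genes (grey). The tallest red stems, at 1559 and 707, stand upstream of the tara-RA start, the next tallest, at 269, stands at the tara-RB start, and no red stem lies downstream of the gene.

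The strongest peak of the locus lay upstream of the gene, in intergenic sequence. Its summit was 3160 bp before the tara-RA start and 904 bp before the start of lncRNA:CR45643, within a peak at 16222304 to 16222675. Its signal was 447, 506 and 593 in replicates 1, 2 and 3 (516 ± 73.5, SD, n = 3), and it ranked 17, 14 and 10 in those lists. The pooled signal of 1559 ranked 13 of 30000. The replicate summits lay 1, 1 and 6 bp from the pooled summit, so all 3 libraries placed it within 6 bp.

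The second strongest peak was also upstream, 2031 bp closer to the gene. Its summit was 1129 bp before the tara-RA start and 668 bp beyond the end of lncRNA:CR45643, within 16224347 to 16224677. The replicate signal was 181, 255 and 266 (234 ± 46.3, SD, n = 3), with ranks of 164, 74 and 73, and the pooled signal of 707 ranked 88. The strongest peak was higher than this one in every replicate, by 2.47, 1.99 and 2.23 times (2.23 ± 0.242, SD, n = 3), and their replicate values did not overlap. Together these upstream peaks held 59.6% of the summed pooled signal of the 12 peaks, and 55.6, 60.1 and 59.0% of the sum in replicates 1, 2 and 3.

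Between them, a weaker summit sat on the start of lncRNA:CR45643 itself, 3 bp from the start of its transcript RB. No function of this RNA is given here. It was lower than both flanking peaks in every replicate, with a replicate signal of 31.5, 42.2 and 55.3 (43.0 ± 11.9, SD, n = 3) and a pooled signal of 133 at rank 2620. Its ranks in the replicate lists were 5469, 3168 and 1975.

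The start of tara-RB carried the strongest peak inside the gene by pooled signal and in replicates 2 and 3, but not in replicate 1. The summit lay 163 bp before that start, within 16242445 to 16242860, and the replicate signal was 75.7, 102 and 104 (93.8 ± 15.7, SD, n = 3). It ranked 1101, 603 and 619 in the replicate lists and 748 in the pooled list, with a pooled signal of 269. Both upstream peaks exceeded it in each library: the strongest by 5.91, 4.98 and 5.70 times (5.53 ± 0.490, SD, n = 3), and the second by 2.39, 2.51 and 2.56 times (2.49 ± 0.0870, SD, n = 3).

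The start of tara-RA had a pooled summit 33 bp before it that missed the threshold. Its pooled signal was 34.5 at rank 23993, so that 20.02% of the pooled list was weaker. Replicate 1 had no summit within 500 bp of this start, replicate 2 had 1 of 19.6 at rank 11416, 315 bp past it, and replicate 3 had 2, the stronger of 27.7 at rank 6671, 7 bp past it. The signal at the tara-RB start was 5.19 times that at the tara-RA start in replicate 2 and 3.75 times in replicate 3. In the pooled list it was 7.80 times, and in replicate 1 the difference could not be expressed as a ratio. These ratios use the strongest summit within 500 bp of each start. At tara-RA that summit differed in place between replicate 2 and the pooled list. Its pooled signal was near that list's lowest of 30.0.

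In the intron, the strongest peak lay 11411 bp past the tara-RA start, at 16236953 to 16237111. Its replicate signal was 94.5, 44.2 and 81.6 (73.4 ± 26.1, SD, n = 3), with ranks of 721, 2939 and 978, and its pooled signal was 206. Replicate 2 was low at this site, and the coefficient of variation of 35.6% was the highest of the 12 peaks. Its values overlapped those of the tara-RB promoter peak, which was lower than this one in replicate 1 and higher in replicates 2 and 3 (ratios of the promoter peak to the intronic peak 0.801, 2.30 and 1.28).

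The next intronic peak by pooled signal, 6387 bp past the tara-RA start, had 73.5, 51.1 and 53.8 in replicates 1, 2 and 3 (59.4 ± 12.3, SD, n = 3) and a pooled signal of 165. Its place rests on replicate 1, since it was the fifth of the locus there, the seventh in replicate 2 and the ninth in replicate 3. A neighbouring pair stood 24367 and 25074 bp past that start, beyond the tara-RB exon. The first of this pair had a replicate signal of 34.3, 60.9 and 54.6 (49.9 ± 13.9, SD, n = 3), and its neighbour had 46.1, 51.9 and 60.4 (52.8 ± 7.23, SD, n = 3). Their values overlapped those of the peak at 6387 bp. They lay in the introns of both transcripts, whereas the other 6 intronic peaks lay in that of tara-RA only.

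Among those 6, the summit at 10884 bp had 61.7, 33.9 and 40.8 in replicates 1, 2 and 3 (45.5 ± 14.5, SD, n = 3). The summit at 15579 bp, 1586 bp before the tara-RB start, had 43.2, 34.8 and 42.0 (40.0 ± 4.56, SD, n = 3). The summit at 4852 bp had 40.5, 31.7 and 47.0 (39.7 ± 7.72, SD, n = 3). The values of these 3 peaks overlapped each other, so their order was not resolved by 3 replicates. Those at 15579 and 4852 bp lay below every value of the peak at 6387 bp.

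The thresholded peak with the lowest pooled signal of the locus, 10057 bp past the tara-RA start, was also the only one missing from a replicate. Replicate 1 had no summit within 200 bp of it, its nearest being 742 bp away, while replicates 2 and 3 had 52.9 and 57.2 (55.1 ± 3.09, SD, n = 2). Its pooled signal of 109 ranked 3645. Its mean over the replicates that had it was above the means of 6 other tara peaks, but that mean leaves out replicate 1. Its summed replicate signal of 110 was the lowest of the thresholded tara peaks. The thresholded list ended at a pooled signal of 105.653, and the strongest pooled peak left out of it had 105.647. The strongest summit of the tara window outside the thresholded list, in the stretch between tara and bor, had a pooled signal of 101.8 at rank 4067.

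**Figure D2:**
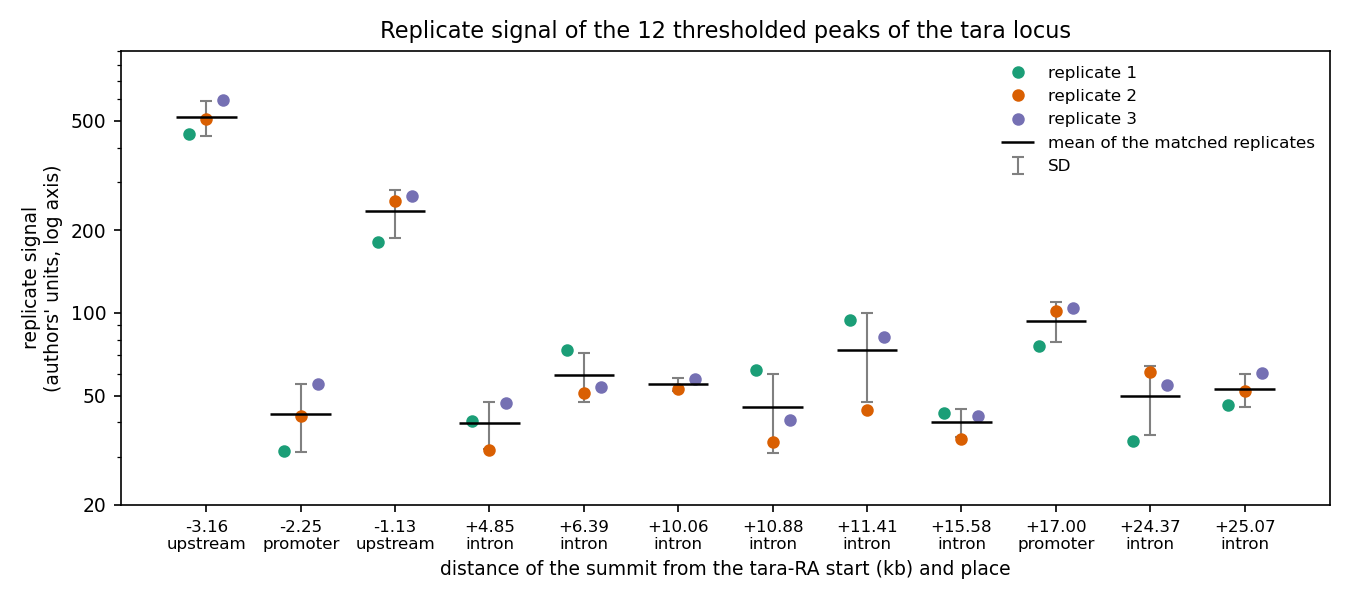
Replicate signal (log axis, authors' units) of the 12 thresholded peaks in replicates 1, 2 and 3 (coloured points), with the mean of the matched replicates (black line) and SD (grey bar), in order of distance from the tara-RA start in kb. The peaks at 3160 and 1129 bp upstream stand above all others in all 3 replicates, the intronic peaks lie between 31.7 and 94.5, and the peak 10057 bp past the start has no replicate 1 point.

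The libraries ordered the top of the locus alike and the rest less so. The upstream peaks were first and second in each replicate, and the tara-RB promoter peak was the third strongest in replicates 2 and 3 and the fourth in replicate 1. Across the 11 peaks found in all 3 lists, the Spearman correlation was 0.600 between replicates 1 and 2, 0.645 between 1 and 3, and 0.855 between 2 and 3, given as a description of points that share libraries. Replicate 3 had the highest signal at 7 of the 12 peaks, replicate 1 at 4 and replicate 2 at 1. These counts leave in any depth difference between the lists, and the share over all thresholded peaks was not computed. The coefficient of variation over replicates had a median of 19.8% over the 11 tara peaks, beside 20.6% over the 3751 thresholded peaks found in all 3 lists (quartiles 12.9 and 31.6%).

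Found in all 3 replicates were 11 of the 12 tara peaks, where 97.9% of the thresholded list was, and the thresholded list was itself made from these lists. Of the other 40 pooled summits of the window, 11 had a match in all 3 replicates (27.5%), where 22.2% of all pooled summits outside the thresholded list did. In 3 of these 11 cases the matching replicate summit was also the match of a thresholded tara peak. In single libraries, 6 of the 12 ranked no lower than 3833, the length of the thresholded list, in every replicate, where 57.7% of all thresholded peaks did. This criterion was added after the values were seen. Among the 100 strongest of the 3833 thresholded peaks, 2 of the 12 lay in the tara window. Among the 1000 strongest 3 of the 12 did, a share like that of 1000 in 3833. The median pooled signal was 146 over the 12 tara peaks and 160 over all thresholded peaks.

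By number of peaks, tara stood near the top of all genes, in the same list on which the gene was selected. A thresholded summit in the gene or within 10 kb was present for tara and for 59.5% of 13968 protein-coding genes, and the median gene had 1. As many as 12 were present at tara and at 4 other genes, 0.0358% of all counting tara. These genes, named after their counts were seen, were CG1677 and ush with 16 each, Raf with 14 and kirre with 13. The gene ush encodes a zinc finger cofactor of GATA factors, Raf a kinase of the receptor tyrosine kinase pathway, and kirre an adhesion protein of myoblast fusion. They are longer than tara, at 48405 to 394149 bp against 34679 bp. Among the 1021 genes of 0.5 to 2 times its length, 0.294% had as many, namely tara, ush and Raf, and the median was again 1.

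**Figure D3:**
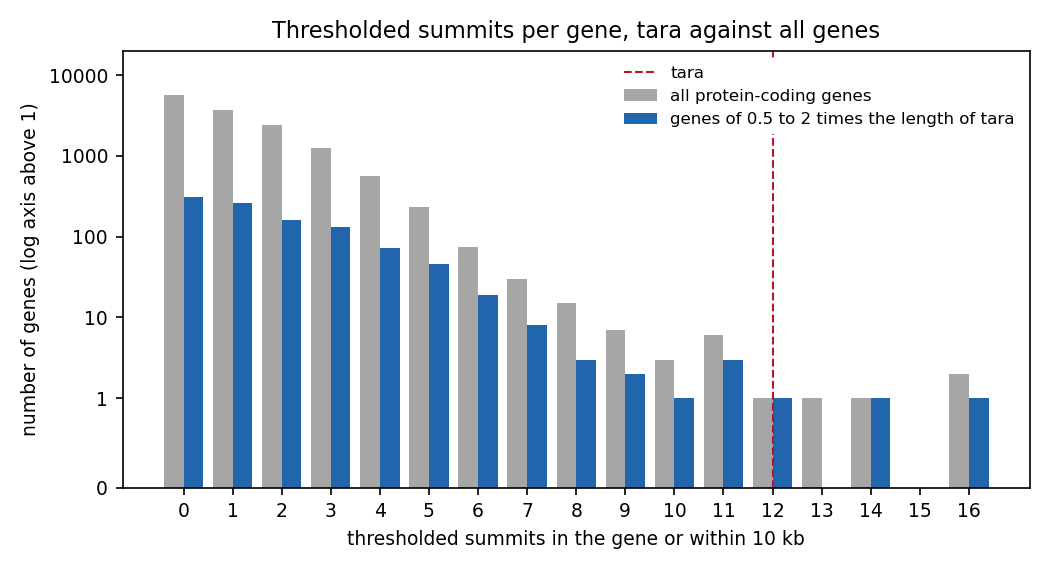
Number of protein-coding genes (log axis above 1) with each number of thresholded summits in the gene or within 10 kb, for all 13968 genes (grey) and for the 1021 genes of 0.5 to 2 times the length of tara (blue). The dashed line marks tara at 12, to the right of which stand only the genes with 13, 14 or 16 summits.

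The pooled summits at the protein-coding genes beside tara in the window were all outside the thresholded list. The cut of that list makes them weaker than every thresholded peak. No thresholded summit fell in bor, in asun, whose product acts with dynein in the male germ line, in the testis gene Mst89B, or in Mat89Ba up to the border of the window. The bor and asun genes start 156 bp apart on opposite strands, and the strongest pooled summit within 500 bp of both starts had a signal of 94.1 at rank 4596, with 45.0, 35.7 and 23.3 in replicates 1 to 3. No pooled summit lay within 500 bp of the Mst89B start. Between tara and bor, 754 bp past the end of tara, a summit had 20.3, 47.9 and 42.1 (36.8 ± 14.6, SD, n = 3), which overlapped the values at the bor and asun starts.

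The Su(H) consensus was searched on both strands in its forms CGTGAGAA, CGTGGGAA, TGTGAGAA and TGTGGGAA. It occurred in 2 of the 12 tara windows of 201 bp, where 3.57% of all 3833 thresholded windows held it. Both were intronic, which makes 2 of 8 intronic tara windows beside 3.46% of the 1069 intronic windows of the genome. The first site, CGTGAGAA at 16230520 to 16230527 on the plus strand, was centred 20.5 bp from the summit at 4852 bp. The other, TGTGGGAA at 16235727 to 16235734 on the minus strand, was centred 22.5 bp from the summit at 10057 bp. These peaks ranked 3175 and 3645 in the pooled list, the tenth and the twelfth by pooled signal within the locus. The one at 10057 bp was the fifth in replicate 2 and the sixth in replicate 3, and the one at 4852 bp was the ninth, the twelfth and the tenth in replicates 1, 2 and 3. The strongest peak, the second strongest and the tara-RB promoter peak held no such letters in their windows.

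Over the whole window of 54679 bp, 4 Su(H) sites were present, all in the tara-RA intron. That is 0.732 per 10 kb, beside 1.06 per 10 kb over the 6 chromosome arms. The sites outside the thresholded windows, both TGTGGGAA, lay 12334 and 26984 bp past the tara-RA start and 926 and 1913 bp from the nearest thresholded summit. Each had a pooled summit closer to it, at 119 and 158 bp. Positions within 100 bp of a thresholded summit made up 4.41% of the window, and positions within 200 bp of a pooled summit 33.8%.

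Matches of other factors were limited to the GAGA repeat and Zelda. GAGAGAG, the repeat bound by the GAGA factor encoded by Trl, was in 2 tara windows, where 5.71% of all windows held it. At the tara-RB promoter it occurred on the minus strand at 66 and 43 bp from the summit, and in the peak at 15579 bp as overlapping copies. CAGGTA, bound by Zelda, an activator of the early embryonic genome, was in 2 tara windows beside 4.17% of all. It was centred 14.5 bp from the summit of the second strongest peak and 79.5 bp from that at 15579 bp. None of the 12 windows held TATCGATA (DREF, 5.37% of all), GGTCACACT (M1BP, 2.95%), the proneural E-box forms GCAGCTG and GCAGGTG (5.9%) or AACCGGTT (Grainyhead, 0.235%). A match is only an occurrence of these letters within 100 bp of a summit.

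The tara windows were rich in G and C. Their median was 48.3% beside 38.8% over all thresholded windows, and 11 of the 12 lay above that median of the whole list. The 8 intronic windows had a median of 48.0% beside 36.8% in intronic windows of the genome. The highest was 61.2%, in the peak at 10884 bp, and the window at the lncRNA:CR45643 start had 58.7%. The second strongest peak was the exception, with 29.4%, a value that only 4.59% of thresholded windows went below, while the strongest peak had 47.8%. The pair that led the locus by signal thus lay on opposite sides of the median base composition.

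**Figure D4:**
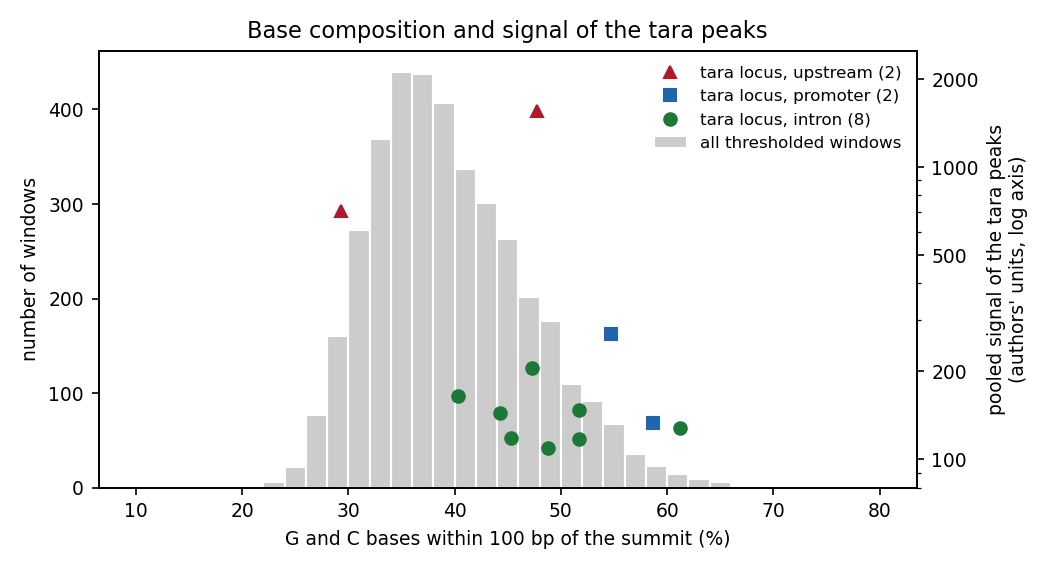
Share of G and C within 100 bp of the summit (horizontal axis, percent) for all 3833 thresholded windows (grey bars, left axis, number of windows) and for the 12 tara peaks (symbols by place, right log axis, pooled signal in the authors' units). The tara symbols lie at 40.3% or more, right of the median of 38.8%, except the upstream peak at 29.4%.

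Genes whose strongest peak was most like that of tara were found by the distance between log2 replicate signals over the 3 replicates, among 1808 genes that were nearest to their own strongest peak. They were larp, an RNA-binding protein gene (distance 0.191, signal 531 ± 34.3), CenG1A, an Arf GTPase regulator gene (0.200, 500 ± 90.1), and Chro, which encodes a chromodomain protein (0.250, 540 ± 20.6). They were followed by ph-p, a Polycomb group gene (0.252, 495 ± 12.8), and Art3, an arginine methyltransferase gene (0.267, 477 ± 41.2; SD, n = 3 each). The tara peak averaged 516 ± 73.5 and lay 3160 bp from the start of its gene, while these genes had theirs 341, 108, 106, 482 and 113 bp from a start of their own. The genes compared were limited to those that were the nearest protein-coding gene to the peak, tara included, which favours peaks close to a gene. Likeness covers signal in these libraries only.

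A list of 18 partner genes was drawn from general knowledge of the cell cycle, trithorax group and Polycomb group. The relation of each to tara was not tested. Of these 18, 13 had a thresholded summit in the gene or within 10 kb, beside 59.5% of all protein-coding genes. The trithorax group had 6 of 6, the Polycomb group 3 of 5 and the cell cycle genes 4 of 7. The genes Rca1, CycE, Rbf, Scm and E(z) had none. With 12 summits, tara had more than any of the 18, of which ph-p had 7 and osa and E2f1 had 5 each. However, tara was chosen by its peaks, and all of the 18 except E2f1 are shorter than tara, so their windows are smaller.

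Some partner peaks stood at the gene's own start. For Dp, the partner of E2F factors, the strongest summit was 190 bp from its start, with 110, 121 and 183 in replicates 1 to 3 (138 ± 39.5, SD, n = 3) and pooled rank 326. At brm, which encodes the ATPase of a chromatin remodelling complex, it was 80 bp away, with 75.3, 31.5 and 34.8 (47.2 ± 24.4, SD, n = 3). At ph-p it was 482 bp away with pooled rank 16. The trithorax gene trx itself had a peak 3027 bp from its start, a distance like that at tara, but with 95.5, 131 and 137 (121 ± 22.6, SD, n = 3) against 516 ± 73.5 at tara.

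For most other partners the strongest summit within 10 kb lay closer to the start of another gene. The one counted for CycA, whose product works with tara in sleep, was 1 bp from the start of the ribosomal gene RpL10Ab. It had a pooled signal of 134 at rank 2581, and a mean over 3 replicates was not available for it. That for Cdk1 was 155 bp from CG5096 (68.2 ± 12.9, SD, n = 3), that for E2f1 62 bp from the insulin receptor gene InR (67.2 ± 30.5), and that for Pc 91 bp from CG11309 (252 ± 6.40). The summit counted for ash1, 103 bp from the start of CG14100, had 876 ± 70.1 and pooled rank 2. Those of osa (364 ± 17.5), Trl (289 ± 38.4), mor (104 ± 19.3) and Psc (101 ± 4.97) were more than 500 bp from any start.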

How the data were processed

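Su(H)-GFP ChIP-seq was analysed from peak lists of 3 biological replicates, numbered as in the labels. Per the labels the pull-down used anti-GFP, while the antibody field names Su(H). Per the lists of files deposited with each library, every replicate list was made by the authors from 1 library and a control, the pooled list from all 3 libraries, and the thresholded list from these by irreproducible discovery rate. No aligner or peak caller is named, and the cut-off is not given in the sources used here. Each deposited signal value (column 7) is the authors' value and its depth is unknown, so it carries no counting interval. The deposited −log10 q value was tied at its cap of 3.85 for 11 of the 12 tara peaks and 3569 thresholded peaks, and was not used for ranking. All lists were on dm6. Lists on dm3 were not used here.

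Summits were the start plus column 10. A replicate summit within 200 bp, the nearest, counted as the same site. A promoter lay within 500 bp of a start in the Ensembl release 115 annotation (BDGP 6.54). Motifs were sought within 100 bp of summits. Errors are SD over the replicates, with any depth difference between lists left in. For the 11 tara peaks with 3 matches the pooled signal was a median of 0.963 times the summed replicate signal, beside 1.01 times over 3751 peaks. Scripts used Python 3.11.15, pandas 2.3.3, numpy 2.4.6 and scipy 1.17.1, and were tested on simulated lists. Named were tara, genes overlapping the window, the partner genes, and the 5 genes most like tara. Outside this rule, gish, the genes with as many summits as tara, and the genes at the starts nearest to partner peaks were named after their values were seen. The gene, the lists and the alternatives were chosen with earlier results of these data known. No column of another sample was present.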

Additional observations from a re-analysis of the deposited data

How the results depend on the processing

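Of 39 alternative settings for the reported values, 7 moved the value beyond the limits used, which were 1.5 times for a count of summits or genes, and otherwise the SD over replicates or the 95% Wilson interval of a share. The number of thresholded tara summits was 10, 12 and 15 with 2, 5 and 20 kb on each side and 12 with summits within 500 bp joined, but 3 among the 1000 strongest thresholded peaks. It was 6 when the rank in every replicate had to be within the length of the thresholded list, a setting chosen after seeing the data. The share of protein-coding genes with a summit, 59.5% at 10 kb, was 33.0% at 2 kb, 45.7% at 5 kb, 75.2% at 20 kb and 26.3% among the 1000 strongest peaks. With those 1000 peaks, 1.05% of genes had as many summits as the 3 of tara or more, against 0.0358% with all thresholded peaks. The cause was not tested. That share was 0.0644% at 2 kb and 0.0215% at 20 kb, within its wide interval. The interval served only as a limit, since all protein-coding genes were counted and it measures no sampling spread. The pooled summits numbered 38 to 68 at 2 to 20 kb. Leaving out each replicate gave 477 to 550 for the strongest peak, 2.11 to 2.35 for its ratio to the second strongest, and 11 to 12 for the peaks found in all remaining replicates. Dividing by each list's median and multiplying by the mean of the 3 medians gave 522 ± 107 (SD, n = 3) for the strongest peak. The partner count was 12, 13 and 17 at 2, 5 and 20 kb and 9 among the 1000 strongest peaks. No paired analysis was possible because all libraries belong to 1 group. Depth is unknown, and 3 replicates limit the order of the weaker peaks.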
